A study of Mus musculus with 2 samples.

Results

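Notch and Hedgehog are pathways that carry signals between cells and have been reported to restrain the differentiation of fat cell precursors. The genes described here are 29 of the Notch pathway and 14 of the Hedgehog pathway. These genes were chosen by name, with earlier results of these data known. They were found through probe sets that the array's annotation assigns to that gene alone. Of these 43 genes 42 had such a probe set, 87 probe sets in all, out of 18193 genes and 34945 probe sets of 1 gene on the array. Maml3 had none, so it has no signal here and enters the promoter counts alone.

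The samples came from 3T3-L1, mouse preadipocytes kept as a cloned line, which become fat cells when exposed to insulin, dexamethasone and 3-isobutyl-1-methylxanthine. One culture received siRNA against Phf21a, whose product BHC80 belongs to a histone demethylase and deacetylase corepressor complex. The other received the control siRNA siGL3. Both were grown in DMEM with 25 mM glucose and 10% FBS, induced 24 h after transfection and lysed 24 h after induction, so both were at an early stage of differentiation. Each group is 1 array. There is no error between replicates and no test was possible, and each difference below compares these arrays and not the treatments. The labels name no genetic change.

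The values are MAS5 signal intensities, and the small number of arrays limits their precision. A probe set counted as detected if either of its signals was at least 51.3, the pooled median of both arrays. Ratios are log2 of Phf21a siRNA over control siRNA, after raising signals to a floor of 12.9, their 25th percentile. "Higher" and "lower" mean higher or lower on the Phf21a siRNA array. Each gene is represented by its brightest detected probe set. The value after ± is a local spread, the scatter of log2 ratios among the 1000 genes nearest in signal. It takes in any true differences and is not an error between cultures. Fewer cells carrying an RNA and less RNA per cell cannot be told apart in such bulk samples.

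Pairs of signals below give the control array first. Phf21a itself had signals of 768 and 306 (log2 ratio -1.33 ± 0.51), and its 3 detected probe sets ranged from -1.35 to -0.73. All 8 fibroblast markers were detected, 3 above 0 and 5 below, and 5 of 7 adipocyte markers, 3 above 0 and 2 below. Pparg had 512 and 814 (0.67 ± 0.53) and Fabp4 had 3502 and 5849 (0.74 ± 0.35). Cebpb, Cebpd and Lpl lay within their spreads. Among the fibroblast markers Dlk1 (-1.05 ± 0.29) and Col1a1 (-0.58 ± 0.38) were lower. Pdgfrb was higher (0.84 ± 0.42), and the other fibroblast markers lay within their spreads. Whether the cultures differed in stage of differentiation was not tested. The late markers Adipoq (12.5 and 26.5) and Cebpa (45.0 and 12.0) were undetected. Of 8 endothelial markers 0 were detected, with summed signals of 109 and 77.8. This bears on Notch4, Dll4 and Hey1, genes known from endothelium. Of 8 leukocyte markers 5 were detected, with summed signals of 419 and 730, and the defining genes went both ways. Csf1r had 200 and 452 (1.18 ± 0.57), with 3 probe sets from 0.18 to 1.18. Cd68 was higher by 0.89 ± 0.70, and the dim Fcer1g had 25.7 and 54.4. The dim Laptm5 had 66.4 and 22.3. Ptprc, found on all leukocytes, had 3.07 and 0.486, and Tyrobp and Cd52 were undetected too. Of 5 skeletal muscle markers 3 were detected and all 3 were lower, with summed signals of 239 and 129. These are dim too. Ckm (55.5 and 22.5) and Actn2 (52.7 and 4.13) stood just above the limit on the control array alone. Des was within its local spread (-0.29 ± 0.71). The part of such cells in the results below was not tested.

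In the Notch pathway a ligand such as Jag1 on one cell binds a Notch receptor on the next, and the protease complex gamma-secretase then frees the receptor's intracellular part. That fragment joins the DNA-binding protein Rbpj and a Mastermind coactivator to switch on genes of the Hes and Hey families. In the Hedgehog pathway a secreted ligand binds Ptch1, which releases the membrane protein Smo and lets the Gli factors act, with Gli1 and Ptch1 among their best known targets. Hedgehog signals travel through the primary cilium.

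The pathways differed in their middle values. Of 28 Notch genes with a probe set 18 were detected, with a median log2 ratio of -0.02, 8 above 0 and 10 below. Of 14 Hedgehog genes 11 were detected, with a median of -0.40, 3 above 0 and 8 below. The median over all 11301 detected genes was 0.03, and 52.2% of them lay above 0. The Notch median thus exceeded the Hedgehog median by 0.38. The local spread of most single members was larger, but it describes single genes and does not measure the scatter of a median.

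Few members differed by much. None was at least 2-fold higher in either pathway, where 5.66% of all detected genes were. In each pathway 1 gene was at least 2-fold lower, Heyl among 18 Notch genes and Shh among 11 Hedgehog genes, where the background was 5.44%. Both are dim, and of detected genes with a mean signal under 64, 23.1% were at least 2-fold lower. At 1.5-fold, 2 Notch genes were higher and 3 lower, against 15.1% and 13.9% of all detected genes, or 11.1% and 16.7% of the Notch genes. At that size 1 Hedgehog gene was higher and 4 were lower, 9.09% and 36.4% of the 11. Of these 4, Shh and Gli1 were undetected on the Phf21a siRNA array. With signals raised to the detection limit they were at -0.52 and -0.17, short of 1.5-fold. The others were Ptch1 and Cdon, and a second, dim probe set of Cdon gave 0.45. Without a replicate the larger share of lower Hedgehog genes is a description of these arrays.

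The Hedgehog value depended on which probe sets were read. With the mean over each gene's probe sets the Hedgehog median was -0.10 and the difference between the pathways shrank to 0.09. Among the 22 detected Hedgehog probe sets 12 lay above 0 and 10 below, with a median of 0.09. The 30 detected Notch probe sets had a median of -0.03, and all detected probe sets of the array one of -0.0033. Counted by probe set, the order of the pathways was thus reversed. With only genes that reached 461 (the 75th percentile), the medians were 0.37 over 11 Notch genes and -0.04 over 6 Hedgehog genes, so both moved up while their difference stayed at 0.41. Scaling to the poly-A control RNAs shifted the median of all genes to -0.70, and against that the Notch median stood at -0.04 and the Hedgehog median at -0.39. This shift applies to all genes alike. It turned the sign of Aph1a, Psenen, Numb, Numbl, Hes1, Hes6, Sufu and Gli3, and scaling to the hybridisation controls turned Numbl and Gli3, but relative to the median of all genes each of these stayed above 0.

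**Figure D1:**
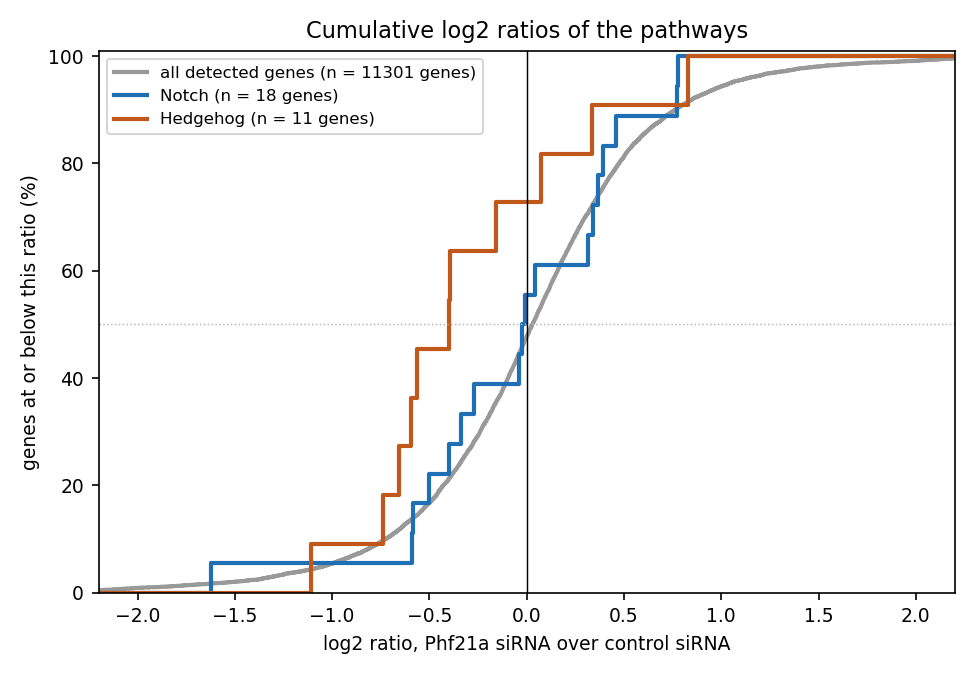
Cumulative share of genes (percent, vertical axis) at or below each log2 ratio of Phf21a siRNA over control siRNA (horizontal axis), for 18 Notch genes, 11 Hedgehog genes and all 11301 detected genes, 1 array per group. The Notch curve follows that of all genes, while the Hedgehog curve lies to its left over most of the range from Shh up to 0 and crosses the midline at -0.40 against 0.03 for all genes.

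The members that stood out among bright genes were Notch2, Jag1 and Gli2, which were higher, and Ptch1 and Ncstn, which were lower. These 5 are the members at least 1.5-fold apart whose higher signal reached 461. Their promoters are shown because they let the genes that moved each way be set side by side. Each is the 250 bases before the start site in RefSeq, 5′ to 3′ on the gene's strand. Capitals mark matches to CACGNG, an E-box form that Hes and Hey repressors are known to bind, searched on both strands and overlapping no other motif searched.

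Notch2 (GRCm38.p6, chr3:98013288-98013537, plus strand): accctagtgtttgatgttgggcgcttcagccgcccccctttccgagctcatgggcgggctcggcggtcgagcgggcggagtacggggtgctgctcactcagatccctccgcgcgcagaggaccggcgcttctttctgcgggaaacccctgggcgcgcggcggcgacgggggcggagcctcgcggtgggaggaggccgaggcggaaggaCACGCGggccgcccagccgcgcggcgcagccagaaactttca

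Jag1 (GRCm38.p6, chr2:137116521-137116770, minus strand): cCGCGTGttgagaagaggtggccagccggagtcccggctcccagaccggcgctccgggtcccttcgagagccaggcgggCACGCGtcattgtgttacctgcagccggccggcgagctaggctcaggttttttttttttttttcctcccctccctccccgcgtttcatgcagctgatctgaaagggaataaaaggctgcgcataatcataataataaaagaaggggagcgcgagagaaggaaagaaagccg

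Gli2 (GRCm38.p6, chr1:119053620-119053869, minus strand): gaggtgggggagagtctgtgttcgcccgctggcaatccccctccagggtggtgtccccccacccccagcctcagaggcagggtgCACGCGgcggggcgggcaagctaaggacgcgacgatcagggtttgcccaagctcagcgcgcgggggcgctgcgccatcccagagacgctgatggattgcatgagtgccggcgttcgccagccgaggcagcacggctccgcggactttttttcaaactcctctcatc

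Ptch1 (GRCm38.p6, chr13:63565736-63565985, minus strand): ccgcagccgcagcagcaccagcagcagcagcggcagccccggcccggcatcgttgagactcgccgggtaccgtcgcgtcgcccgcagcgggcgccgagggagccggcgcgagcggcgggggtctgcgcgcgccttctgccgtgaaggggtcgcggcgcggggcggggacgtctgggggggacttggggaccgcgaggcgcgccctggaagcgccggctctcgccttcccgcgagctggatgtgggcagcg

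Ncstn (GRCm38.p6, chr1:172082750-172082999, minus strand): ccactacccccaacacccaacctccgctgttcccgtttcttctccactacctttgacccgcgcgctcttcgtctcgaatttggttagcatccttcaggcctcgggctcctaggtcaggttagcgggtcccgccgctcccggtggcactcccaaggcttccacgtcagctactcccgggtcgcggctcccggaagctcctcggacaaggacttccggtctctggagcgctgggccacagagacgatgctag

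The 3 promoters of the higher genes each held CACGNG, as CACGCG 42 bases before the start in Notch2 and 166 bases before it in Gli2. Jag1 held it at 249 and 171 bases before the start, the first as CGCGTG. The promoters of Ptch1 and Ncstn had none in this window. Over the other detected members the motif was present and absent on both sides of 0. Below 0, Rfng, Psen2, Smo, Lfng and Dll4 held it in a promoter, and Notch1, Rbpj, Maml1, Gas1, Cdon and Disp1 did not. Above 0, Hes6, Psenen and Numb held it in a promoter, and Sufu, Aph1a, Gli3 and Numbl did not. The motif was in 23.5% of all 32851 RefSeq promoters, and in 33.3% of the 45 promoters found for 36 members, Maml3 included. The motif contains a CpG, and member promoters were rich in CpG, with a median of 17 per 250 bases against 6 for all promoters. A match is a description of the sequence and not a bound site.

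Other motifs were searched in the same windows on both strands. TGGGAA, the core that Rbpj binds, was in 9 of 33 Notch promoters (27.3%) and 0 of 12 Hedgehog promoters, and in 21.6% of all promoters. Its carriers were Lfng, Hes5, Hey2, Psen2, Psenen, Maml2, Maml3 and Rbpj itself, whose promoter windows overlap and were counted separately. TGGGTGGTC, the site of Gli factors, was in 0 of 45 member promoters and 0.225% of all. GGGCGG, the GC box bound by Sp factors, was in 25 of 45 member promoters against 32.7% of all. Detected members had a median of 15.5 CpG per promoter and undetected members one of 17.5. No entry was matched for Hes1, Hey1, Heyl, Mfng, Boc, Gli1 and Shh.

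Among the Notch receptors, the membrane proteins that are cleaved on ligand binding, 2 of 4 were detected and they went opposite ways. Notch2 (Entrez gene 18129) had signals of 992 and 1695, 1.71-fold higher (0.77 ± 0.46). A second, dim probe set of Notch2 had 54.2 and 38.8 (-0.48), so the mean over both was 0.15. Notch1 (Entrez gene 18128) was lower at 120 and 79.6 (-0.59 ± 0.71), within its local spread. Its other probe set had 72.4 and 16.2 (-2.16), which put the mean over both at -1.37. Notch3 (48.0 and 46.7) and Notch4 (45.5 and 23.8) were undetected on every probe set.

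Jag1 (Entrez gene 16449), a ligand that cells display to Notch receptors, was 1.72-fold higher, from 508 to 871 (0.78 ± 0.53). Its other probe sets had 173 and 199 (0.20) and 90.3 and 128 (0.51), so all 3 were higher. Jag1 thus was higher together with Notch2, and both kept that sign under all 11 processing alternatives. Several of these could not have changed it. A floor at the detection limit, a stricter limit, no limit and removal of suffixed probe sets left both ratios unchanged. The mean over probe sets put Jag1 at 0.50 and Notch2 at 0.15. Under poly-A scaling they were at 0.08 and 0.07. The remaining ligands were at or under the limit. Dll4 had 56.8 and 55.9 (-0.02 ± 0.78), with a second probe set undetected at 38.0 and 16.9. Dll1 (32.4 and 40.3), Dll3 (9.88 and 27.1) and Jag2 (50.5 and 10.2) were undetected, and Jag2 lay just under the limit on the control array.

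The Fringe enzymes add sugar to Notch receptors and tune which ligand they answer to. Lfng was level at 130 and 127 (-0.04 ± 0.70). Rfng was lower within its spread, at 656 and 544 (-0.27 ± 0.52), and its second probe set had 447 and 258 (-0.79). Mfng was undetected at 11.0 and 6.60.

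All 4 listed gamma-secretase subunits were detected, and they were split. Ncstn (Entrez gene 59287), nicastrin, which receives the substrate, was lower at 700 and 467 (-0.59 ± 0.52), exactly at the 1.5-fold line. Psen2, a catalytic presenilin, was at 216 and 152 (-0.50 ± 0.61). Psenen, the small subunit PEN-2, was at 3590 and 4470 (0.32 ± 0.37). Aph1a, the scaffold subunit, was at 801 and 1100 (0.46 ± 0.48), but its 3 probe sets ran from -0.44 to 0.46. Only Ncstn passed its local spread.

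In the nuclear complex Rbpj (Entrez gene 19664), which carries the Notch fragment to DNA, was lower on all 3 probe sets. Their signals were 2656 and 2013 (-0.40 ± 0.43), 1839 and 1386 (-0.41), and 794 and 424 (-0.90). The coactivator Maml1 had 1420 and 1123 (-0.34 ± 0.46) on a probe set and 412 and 223 (-0.89) on another. For both genes the brightest probe set lay within its local spread while the dimmest detected one was at -0.90 and -0.89. Both were below 0 under all 11 alternatives. Of these, a floor at the detection limit, a stricter limit and no limit left both ratios unchanged. No choice among their detected probe sets could turn the sign. Maml2 was undetected at 21.8 and 19.4.

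Numb, an adaptor that antagonises Notch, had 793 and 1022 (0.37 ± 0.48), with a second probe set at 166 and 251 (0.60). Its relative Numbl was level at 311 and 320 (0.04 ± 0.55).

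The Hes and Hey factors and Nrarp are 7 genes, of which 4 were detected, 2 above 0 and 2 below. Hes1, the repressor most often read as a Notch target, had 550 and 721 (0.39 ± 0.53) on its only probe set. Hey1 was level at 84.1 and 83.5 (-0.01 ± 0.71). Hes6, a relative that opposes Hes1, had 255 and 323 (0.34 ± 0.57), and 293 and 469 (0.68) on a probe set that may cross-hybridise. Heyl (Entrez gene 56198) had 51.3 and 16.7 (-1.62 ± 1.26). Its control signal stood at the detection limit, and with both signals raised to that limit the ratio was -0.0016. Hes5 (10.8 and 30.8), Hey2 (6.79 and 2.33) and Nrarp, a feedback inhibitor of the pathway (34.0 and 6.43), were undetected.

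**Figure D2:**
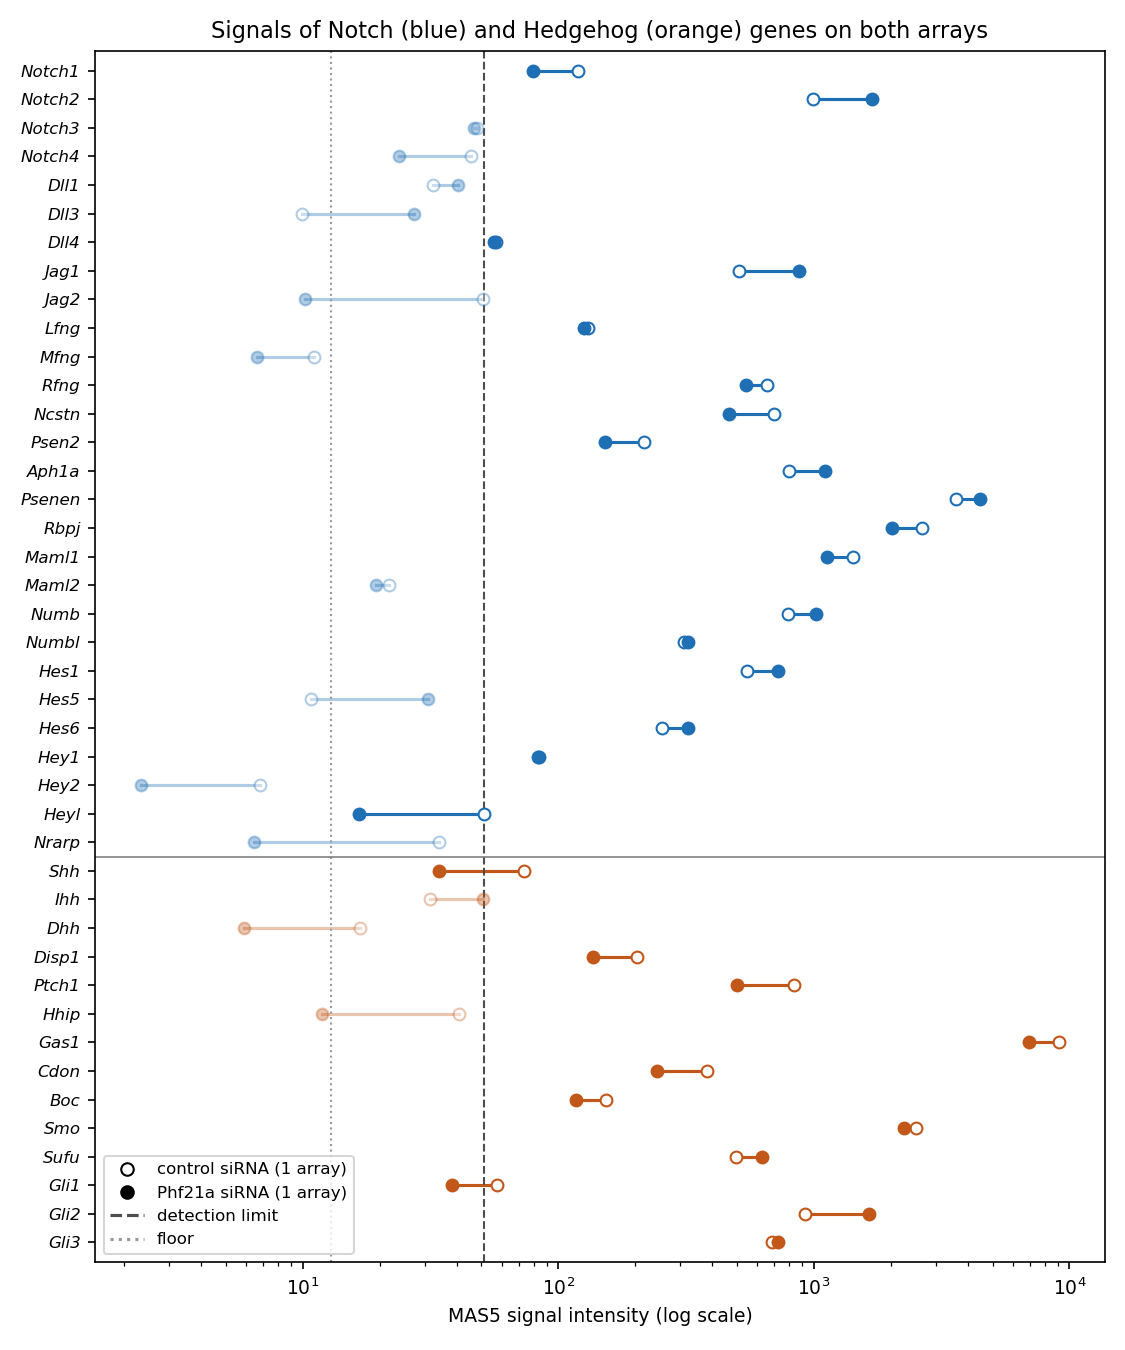
MAS5 signal (log axis) of the 42 members with a probe set, 1 line per gene from the control siRNA array (open circle) to the Phf21a siRNA array (filled circle), for the brightest probe set. Faint lines are the 13 undetected members, whose signals all lie left of the dashed limit of 51.3. Notch2, Jag1 and Gli2 move right, and Ptch1, Cdon and Ncstn move left.

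At the receptor end of the Hedgehog pathway the brightest probe sets were all below 0. They belong to 4 detected genes of receptors and binding proteins, with a median of -0.53 and 3 of 4 past their local spread. Ptch1 (Entrez gene 19206), the receptor that holds Smo in check, had 832 and 499, 1.67-fold lower (-0.74 ± 0.53). Its other probe sets were undetected at 48.5 and 42.7 and at 35.1 and 6.94. Ptch1 stayed below 0 under all 11 alternatives, from -1.44 to -0.74. With 1 detected probe set, its ratio could not change with the mean over probe sets or the removal of suffixed ones. The changes of floor and detection limit left it unchanged too.

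Gas1, Cdon and Boc are surface proteins that help Ptch1 bind the ligand. Gas1 (Entrez gene 14451) had 9092 and 6924 (-0.39 ± 0.29), 2539 and 1739 (-0.55), and 109 and 76.6 (-0.51), so its 3 probe sets lay close together and all were lower. Cdon had 382 and 243 (-0.66 ± 0.57), but its second probe set, at 40.6 and 55.5, gave 0.45. Boc had 154 and 117 (-0.40 ± 0.69), and again a second probe set, at 77.2 and 106, gave 0.46. The mean over probe sets left Cdon at -0.10, and Boc turned above 0 there and without suffixed probe sets. Thus Gas1 was lower on every probe set, whereas Cdon and Boc were not. Hhip, a decoy that soaks up ligand, was undetected on 4 probe sets, the brightest at 40.7 and 11.9.

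The ligands were near or under the limit. Shh, sonic hedgehog, had 73.6 and 34.1 (-1.11 ± 1.09), with the lower signal undetected. With signals raised to the detection limit it was at -0.52, and its second probe set was undetected. Ihh (31.4 and 50.7) and Dhh (16.7 and 5.86) were undetected. Disp1, which releases the lipid-bearing ligand from cells, had 203 and 137 (-0.57 ± 0.61) on a probe set and 103 and 128 (0.32) on another.

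From Smo to the Gli factors the genes were level or higher, apart from Gli1. Smo, which passes the signal inward, had 2518 and 2258 (-0.16 ± 0.42), with 0.11 on a second probe set. Sufu, which holds Gli proteins in the cytoplasm, had 494 and 624 (0.34 ± 0.52), and its 3 probe sets lay between 0.31 and 0.39. Gli3, mainly a repressor, had 686 and 722 (0.07 ± 0.53), with the dimmest of 3 probe sets at 0.93.

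Gli2 (Entrez gene 14633), the main activator of the family, had 921 and 1638, 1.78-fold higher (0.83 ± 0.47). Its second probe set was higher too, at 213 and 328 (0.62), and the sign held under all 11 alternatives, with 0.13 under poly-A scaling. The changes of floor and detection limit and the removal of suffixed probe sets left the Gli2 ratio unchanged, so they could not test the sign. Gli1, which Gli proteins themselves induce, had 57.7 and 38.2 (-0.60 ± 1.26), so its lower signal was undetected and the ratio lay well within its spread. Gli2 was thus higher where Ptch1 was lower, while the dim Gli1 allowed no reading.

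**Figure D3:**
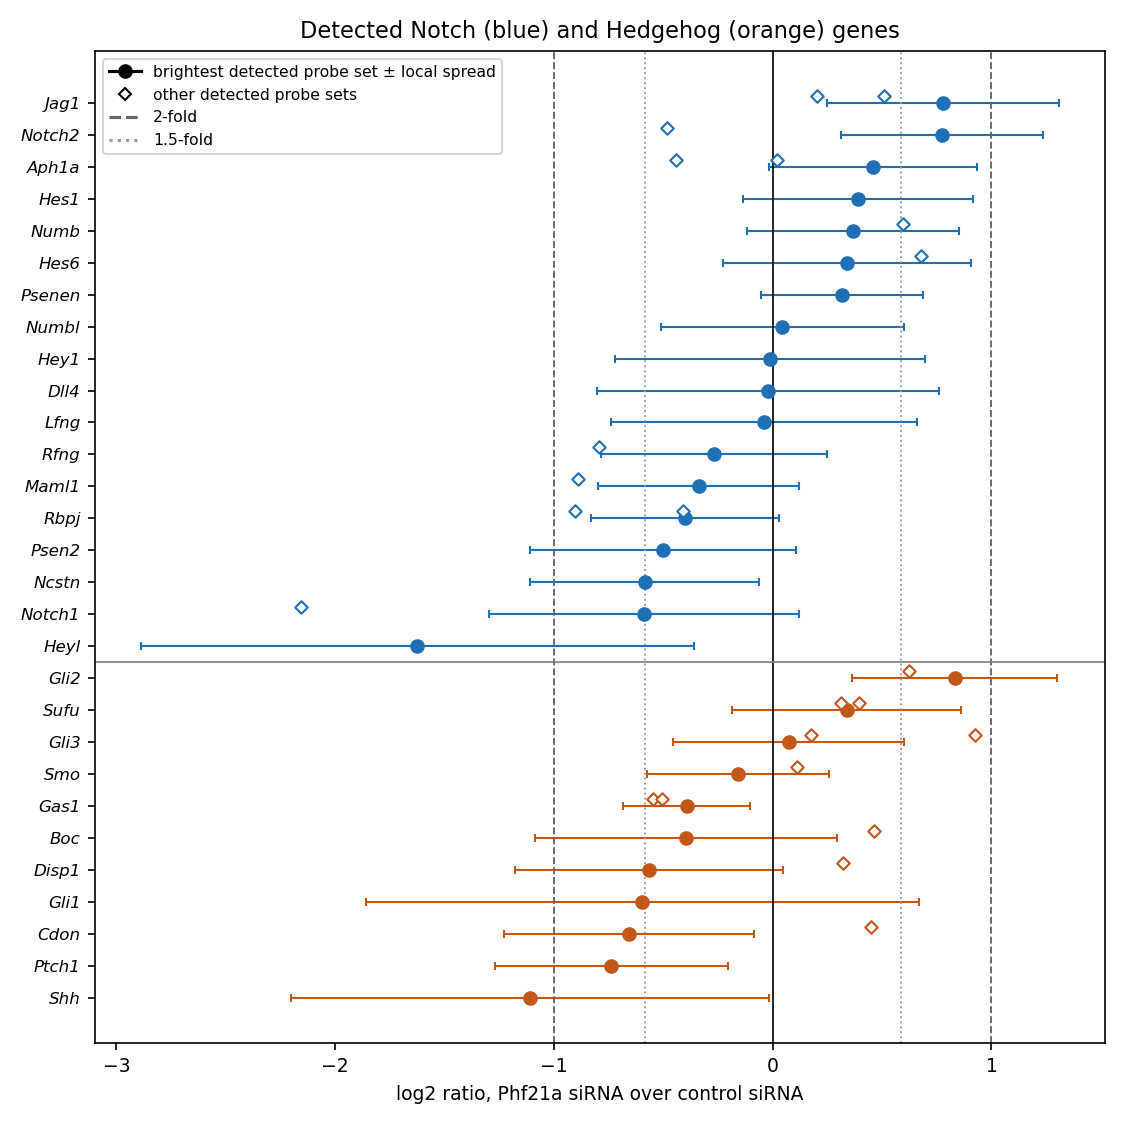
Log2 ratio of Phf21a siRNA over control siRNA for 29 detected members, 18 of the Notch pathway above and 11 of the Hedgehog pathway below. Circles with bars are the brightest detected probe set ± local spread and diamonds are other detected probe sets. Notch2, Aph1a, Cdon, Boc, Disp1 and Smo have diamonds on the other side of 0, and Jag1, Rbpj, Gas1 and Gli2 do not.

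Of 29 detected members 9 passed their local spread, 31.0% against 33.0% of all detected genes. They were Notch2, Jag1, Ncstn and Heyl of the Notch pathway and Gli2, Ptch1, Gas1, Cdon and Shh of the Hedgehog pathway. Several probe sets were detected for 17 members, and in 11 of them all had the same sign (64.7%, against 61.4% of 5597 genes with several). Among members the highest and lowest probe set of a gene differed by a median of 0.55 on the log2 scale, against 0.44 over all such genes. Of the 52 detected member probe sets 0 were at least 2-fold higher and 3 lower, where 5.27% and 6.49% of all detected probe sets were.

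Wider lists of pathway genes had medians near that of all genes. The lists were chosen with earlier results of these data known, so their shares beside those of all genes are descriptions only. Of 40 further Notch genes on the array 35 were detected, with a median of 0.09, 1 at least 2-fold higher and 2 lower, 2.86% and 5.71% against 5.66% and 5.44% of all detected genes. At 1.5-fold 6 were higher and 9 lower, 17.1% and 25.7% against 15.1% and 13.9%, and 15 passed their local spread, 42.9% against 33.0%. Dlk1, a ligand-like protein that lacks the receptor-binding domain of Notch ligands, had 12290 and 5940 (-1.05 ± 0.29). Adam17, a protease that trims receptors at the surface, had 1083 and 539 (-1.01 ± 0.51), with 3 probe sets from -1.15 to -0.79. Hes7, a Hes factor of the segmentation clock, was dim at 27.0 and 66.3. Of 39 further Hedgehog genes 34 were detected, with a median of 0.09, 1 at least 2-fold higher and 1 lower (2.94% each, against 5.66% and 5.44%). At 1.5-fold 5 were higher and 2 lower (14.7% and 5.88%, against 15.1% and 13.9%). Stk36, a kinase linked to Gli factors and cilia, had 54.6 and 115 (1.08 ± 0.72), and 2.79 on a second probe set. Hhatl, a relative of the acyltransferase of Hedgehog ligands, was dim at 59.3 and 13.0.

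Genes reported downstream of each pathway formed a further pair of lists. These too were chosen with earlier results of these data known, so their shares are descriptions only. Of 21 genes reported downstream of Hedgehog 14 were detected, with a median of -0.40, 0 at least 2-fold higher and 2 lower (14.3%, against 5.44% of all detected genes). At 1.5-fold 0 were higher and 6 lower (42.9%, against 13.9%). Of these 6, Foxf1, Sfrp1 and Hsd11b1 were undetected on the Phf21a siRNA array. With signals raised to the detection limit Foxf1 (-0.11) and Sfrp1 (-0.57) fell short of 1.5-fold, and Hsd11b1 was at -0.96. The 2 genes past 2-fold were Hsd11b1, which activates glucocorticoid (99.9 and 11.0), and Sfrp1, a Wnt inhibitor (76.0 and 24.7), each undetected on the Phf21a siRNA array. The median of this downstream list moved with the processing. It was -0.56 with the mean over probe sets, -0.20 with signals raised to the detection limit, -0.09 without suffixed probe sets, 0 without a detection limit and 0.10 with the stricter limit, which kept fewer genes. Of 19 genes reported downstream of Notch 15 were detected, with a median of 0.25, 2 at least 2-fold higher and 0 lower (13.3% higher, against 5.66% of all detected genes). At 1.5-fold 4 were higher and 2 lower (26.7% and 13.3%, against 15.1% and 13.9%). The 2 genes past 2-fold were the dim Hes7 and Ppargc1a, a coactivator of oxidative genes that Notch is reported to hold down (68.6 and 324, 2.24 ± 0.64). With a gene of that kind in the list, its median has no single direction to be read against. The downstream lists share Ccnd1, Bcl2, Snai1 and Gata3, so they are not separate. Hes7 and Dtx1 are in the wider Notch list as well.

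**Figure D4:**
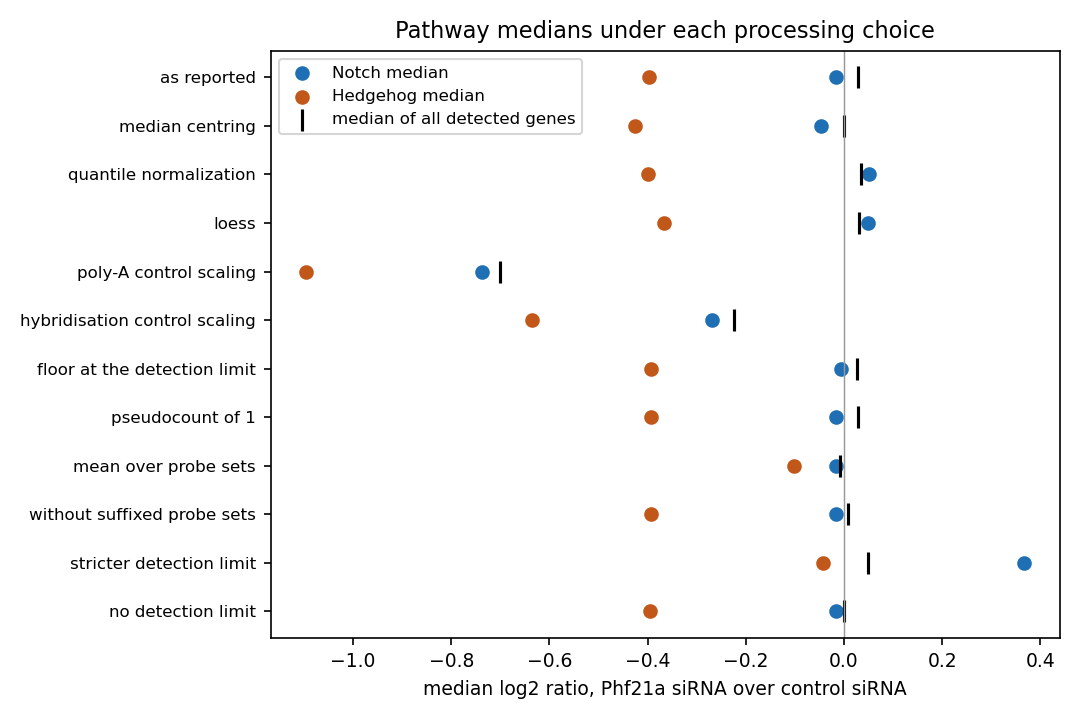
Median log2 ratio (horizontal axis) of the detected Notch and Hedgehog genes under the values as reported and 11 processing alternatives (vertical axis), with the median of all detected genes as a bar. The Hedgehog median lies left of the Notch median in all of these, by 0.38 as reported and by 0.09 with the mean over probe sets. Each takes a single value per gene. Centring and scaling to control RNAs shift all genes alike, so they are no real check of that order. The medians over all detected probe sets, which had the reverse order, are not drawn.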

How the data were processed

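Total RNA from 2 cultures was hybridised to 1 array each. The authors made the deposited signal intensity, which is linear and not logged, with MAS5, per the submitters' processing notes. Version and genome build: not given in the sources used here. This method subtracts mismatch probes, which leaves low signals noisy. Trimmed of 2% at each end, the mean was 500 on both arrays, a scaling that cannot show a change in total messenger RNA. Detection calls were not used here.

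Genes came from the array's annotation: of 45101 probe sets 64 were controls, 34945 had 1 gene, 932 several and 9160 none. All 42 member symbols matched RefSeq by Entrez number. Groups came from the sample descriptions. Signals were raised to the 25th percentile before log2. The brightest detected probe set stood for a gene, and those ending in _x_at were left out where another was detected. Where a signal lay under the floor no fold is given. No test was run, and the steps were tested on simulated data.

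All members were named. Of each wider or downstream list the genes at least 2-fold apart were named. The members and lists were chosen with earlier results of these data known. Alternatives were centring, quantile normalization, loess, scaling to poly-A or hybridisation controls, a floor at the detection limit, a pseudocount of 1, a mean per gene over its probe sets, removal of suffixed ones (_a_at, _s_at, _x_at), no detection limit or one at the 75th percentile, other folds, and agreement of all probe sets. Promoters are from RefSeq (GRCm38.p6). Python 3.11.15, numpy 2.4.6, pandas 2.3.3, statsmodels 0.14.6 and matplotlib 3.10.9 were used.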

Additional observations from a re-analysis of the deposited data

How the results depend on the processing

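With 1 array per group no replicate could be left out. No paired analysis was possible because each group holds a single array and no test was run. Counts of 0 or 1 gene move easily. The count of Notch genes at least 2-fold lower, 1 as reported, was 0 with quantile normalization, loess, a floor at the detection limit and the stricter limit, 2 with hybridisation control scaling and the mean over probe sets, 3 without a detection limit and 8 with poly-A scaling. Without a detection limit 2 Notch genes were at least 2-fold higher. The Hedgehog count lower, 1 as reported, was 0 with loess, a floor at the detection limit and the stricter limit, 2 without a detection limit and 7 with poly-A scaling, where 28.7% of all genes were at least 2-fold lower. At 1.5-fold 2 Notch genes were higher and 3 lower, and 1 Hedgehog gene was higher and 4 lower. At 3-fold the Hedgehog count was 0.

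Poly-A scaling moved the medians to -0.74 (Notch), -1.10 (Hedgehog), -0.64 and -0.61 (wider Notch and Hedgehog lists), -0.56 and -1.10 (downstream of Notch and of Hedgehog), with all genes at -0.70. Hybridisation control scaling put all genes at -0.22. The Notch median lay above the Hedgehog median in all 11 alternatives, by 0.09 to 0.45. These take a single value per gene. Centring takes the same value from every gene, so its difference of 0.38 was fixed in advance. Scaling to control RNAs also shifts all genes alike, and acts on the difference only through the floor and the detection limit. Over all detected probe sets the order was reversed, with medians of -0.03 (Notch) and 0.09 (Hedgehog). Of 304 member values under alternatives 277 moved by less than the local spread, and 22 of the other 27 were under poly-A scaling. The local spread exceeds the ratio of most members, so a value could change sign within it. Dll4 and Hey1 did so with loess, and Boc with the mean over probe sets. Some alternatives also leave a bright gene's ratio unchanged. Dim signals limit the detected Dll4 and Shh, Heyl, Gli1 and every undetected member.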

Other observations

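Of the 13 undetected members the brightest signals lay between 6.79 and 50.7, and 8 had a signal under the floor on the probe set used.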
